A study of Mus musculus with 8 samples.

Results

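The arcuate nucleus (Arc) and the lateral hypothalamus (LH) of the mouse were compared on 4 of the 8 arrays of the series, 2 per nucleus, chosen by their titles (Arc1, Arc2, LH1, and LH2). The other 4 arrays hold the ventromedial (VMH) and dorsomedial (DMH) hypothalamus. All tissue was cut by laser microdissection from female C57BL/6 mice (C57BL/6J in the study's methods) at 3 months of age, with no treatment or transgene, and the study's methods give 2 animals as its source. The labels do not say which arrays share an animal, so the spread between the 2 arrays of a nucleus may be technical. The RNA was amplified as a whole transcriptome before it was labelled and hybridized. Each array is an Agilent mouse design read in 1 color, and its values are signal intensities, divided here by the 75th percentile of the array relative to the geometric mean of that percentile over the 8 arrays, and called scaled signals. Of 55681 probes, 26908 were called well above background by the scanner software on both arrays of at least 1 of the 2 nuclei and were compared. These include 12633 genes named through RefSeq accessions, each represented by its brightest probe.

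As background, the Arc lies at the base of the hypothalamus beside the third ventricle and the median eminence. It holds *Agrp* and *Npy* neurons that drive feeding, *Pomc* neurons that restrain it, *Kiss1* neurons that control the release of gonadotropins, and dopamine neurons that restrain prolactin, and it senses circulating hormones. Tanycytes, the specialized ependymal cells of the ventricle floor, border it. The LH holds the orexin (*Hcrt*) and melanin-concentrating hormone (*Pmch*) neurons, which promote wakefulness, feeding, and sleep regulation, and it is crossed by the myelinated fibers of the medial forebrain bundle.

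The labelled tissues matched their defining peptides, with *Agrp* and *Pomc* bright in the Arc and *Hcrt* and *Pmch* bright in the LH. The arrays of a nucleus were not equally alike. Over the probes compared, the log2 signals of Arc1 and Arc2 correlated with r = 0.983 and those of LH1 and LH2 with r = 0.938, against 0.899 to 0.920 between an Arc and an LH array. In the Arc 49 probes differed more than 4-fold between the replicates, and in the LH 858 did. The software found 47.1% to 50.1% of the spots of the 4 arrays well above background and none saturated, and 364 spots of LH1 carried an outlier flag, and 126 to 161 of each other array. Of the probes above 1000 on the 3 other arrays, 136 were not well above background on LH1 and 0 to 2 on any other of the 4 arrays. A difference in these tissue pieces can come from fewer cells of a type or from less RNA per cell, which cannot be told apart.

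With limma, 366 probes were higher in the Arc and 765 in the LH at an adjusted p under 0.05, which is 1.36% and 2.84% of the probes compared. In the Arc, 246 of the called probes belonged to 226 named genes and 120 had no gene name. In the LH, 579 belonged to 522 named genes and 186 had no gene name. Unless another setting is named, an adjusted p for the 2 nuclei comes from this fit, with Benjamini-Hochberg adjustment over the 26908 probes. Unless another rule is stated, "rose", "higher in", or "called" is used for what passed it. The lower nucleus was not well above background on either array for 176 of the probes called in the Arc and 239 of those called in the LH, so their sizes are only bounded. With these probes at their bound, the median Arc-minus-LH log2 difference was 1.65 for the calls in the Arc and -1.87 for those in the LH. Of the genes named below, *Bdnf*, *Crhr2*, *Flt1*, *Ghr*, *Glul*, *Lhx9*, *Mc3r*, *Nkx2-1*, *Npb*, *Nptx2*, *Npy2r*, *Olig2*, and *Slc17a6* lost their call under at least 1 other scaling and also without the filter on dim probes. *Acta2*, *Calcr*, *Gch1*, *Gjb6*, *Kcna2*, *Mbp*, *Otp*, *Rax*, *Rbp4*, *Six3*, *Sstr1*, and *Tac2* lost it without that filter, where 55573 probes were tested, and under no other scaling. Where 1 array of a nucleus was not well above background, its reading was used as it is. If that reading lay under the lowest measured signal of its array, raising it to that level would make the difference smaller. Signals described as at or below background are those the software did not call well above it. Called or not, both Arc arrays were above both LH arrays for 27.7% of the probes and both LH arrays above both Arc arrays for 29.4%. At an unadjusted p under 0.05, 2803 probes were higher in the Arc and 3493 in the LH. Without Arc1 or without Arc2 limma called 0 probes in either direction, with 1145 and 1725 higher in the Arc and 1557 and 1651 higher in the LH at an unadjusted p under 0.05, since the spread then rests on the pair of LH arrays. Without LH1 the counts were 2297 and 1879, and without LH2 1770 and 1755. An exact permutation test of 2 arrays against 2 cannot give a two-sided p below 0.333.

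**Figure D1:**
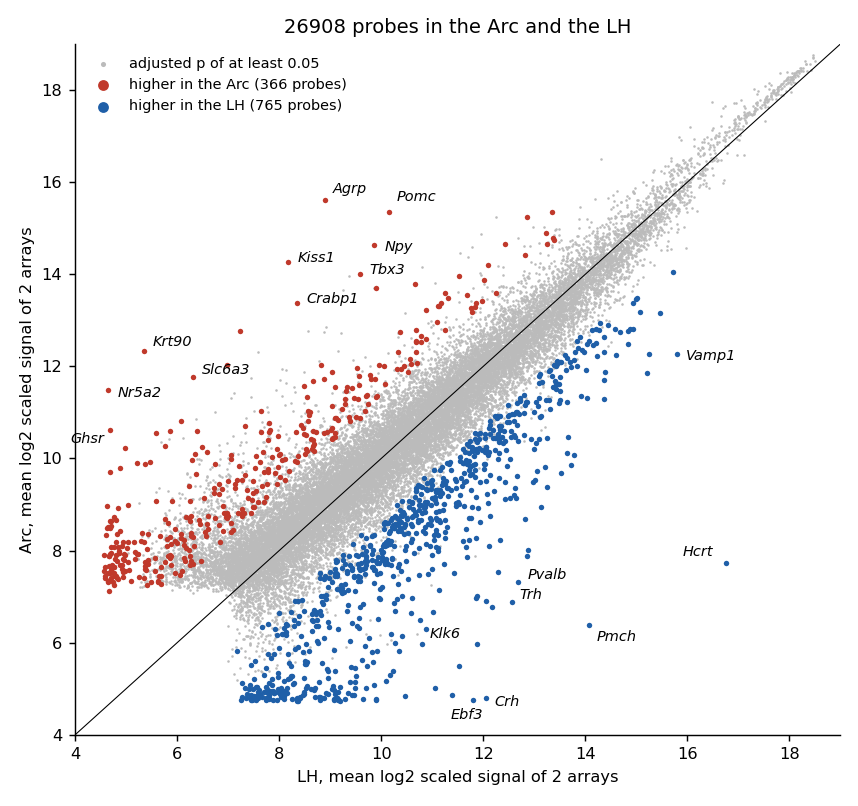
Each point is 1 of 26908 probes, with its mean log2 scaled signal over the 2 LH arrays on the x axis and over the 2 Arc arrays on the y axis, where red and blue points have an adjusted p under 0.05 by limma, and the line marks equal signals. *Hcrt* lies farthest below the line, with a log2 difference of -9.03, and *Agrp* is among the brightest probes above it, with 6.70.

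Among the neuropeptide genes of the Arc, 3 of the 4 feeding peptides rose, with a median log2 difference of 4.99 against -0.10 over all 12633 named genes. Of those genes, 1.54% were called in the Arc and 3.62% in the LH, which is the background for every list below. *Agrp*, the melanocortin antagonist of hunger neurons, had scaled signals of 53020 and 47181 on the Arc arrays and 397 and 581 on the LH arrays, an Arc-minus-LH difference of 6.70 ± 0.28 in log2 (SE) at an adjusted p of 0.00635. *Npy*, made by the same neurons, had 26974 and 23813 on the Arc arrays and 973 and 873 on the LH arrays, an Arc-minus-LH difference of 4.78 ± 0.23 in log2 (SE) at an adjusted p of 0.00635. Both Arc arrays stood far above both LH arrays for either gene. *Pomc*, the precursor of α-melanocyte-stimulating hormone, had 40403 and 43108 on the Arc arrays and 1003 and 1299 on the LH arrays, an Arc-minus-LH difference of 5.19 ± 0.25 in log2 (SE) at an adjusted p of 0.00635. *Cartpt*, the CART peptide that is also made in the LH, had 43102 and 44665 on the Arc arrays and 19288 and 27917 on the LH arrays, an Arc-minus-LH difference of 0.92 ± 0.27 in log2 (SE) at an adjusted p of 0.140. Its Arc signals were the higher ones, without passing the threshold.

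Of the 4 reproductive peptide genes, 2 rose. *Kiss1*, the kisspeptin gene that drives gonadotropin-releasing hormone neurons, had 23170 and 16617 on the Arc arrays and 300 and 281 on the LH arrays, an Arc-minus-LH difference of 6.08 ± 0.26 in log2 (SE) at an adjusted p of 0.00635. Its other, dimmer probe had 336 and 427 on the Arc arrays and 24.0 and 168 on the LH arrays and was not called (adjusted p = 0.189), and LH1 was not well above background there. *Tac2*, the neurokinin B gene of the same cells, had 13623 and 10678 on the Arc arrays and 3522 and 3101 on the LH arrays, an Arc-minus-LH difference of 1.87 ± 0.25 in log2 (SE) at an adjusted p of 0.0296. The remaining peptide gene of these cells, *Pdyn* (dynorphin), had 2194 and 3429 on the Arc arrays and 1708 and 1246 on the LH arrays, with an Arc-minus-LH difference of 0.91 ± 0.33 in log2 (SE) at an adjusted p of 0.191. *Gal* (galanin) differed more between the LH arrays than between the nuclei, with 20838 and 24187 on the Arc arrays and 656 and 13551 on the LH arrays and an adjusted p of 0.292. In the growth axis, *Ghrh*, the growth hormone-releasing hormone gene, rose in the Arc, with 11681 and 15186 on the Arc arrays and 780 and 1168 on the LH arrays and an Arc-minus-LH difference of 3.80 ± 0.31 in log2 (SE) at an adjusted p of 0.0152. *Sst* (somatostatin) had 33478 and 33319 on the Arc arrays and 5052 and 12817 on the LH arrays, an Arc-minus-LH difference of 2.05 ± 0.48 in log2 (SE) at an adjusted p of 0.0924, so that all its Arc signals were above its LH signals but the LH arrays lay far apart.

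The genes listed as peptides of the LH, which include the pentraxin *Nptx2*, went the other way, and 8 of 10 were higher there, with a median log2 difference (Arc minus LH) of -3.67 when the 4 genes not measured in the Arc are taken at their bound. *Hcrt*, the orexin precursor, gave the largest difference of any probe measured in both nuclei, with 188 and 241 on the Arc arrays and 105972 and 116750 on the LH arrays and an Arc-minus-LH difference of -9.03 ± 0.25 in log2 (SE) at an adjusted p of 0.00635. *Pmch*, the melanin-concentrating hormone precursor, had 97.5 and 71.1 on the Arc arrays and 17650 and 17005 on the LH arrays. Neither Arc array was well above background, so the ratio is only bounded, and *Pmch* rose at least 153-fold in the LH (adjusted p = 0.00635). In the same way *Crh* (corticotropin-releasing hormone) was at least 37.4-fold higher, at 28.7 and 26.8 in the Arc and 4931 and 3623 in the LH (adjusted p = 0.00635). *Trh* (thyrotropin-releasing hormone) was at least 50.2-fold higher, at 116 and 119 in the Arc and 6519 and 5690 in the LH (adjusted p = 0.00635). *Nts* (neurotensin), a peptide of a separate LH cell group, was at least 12.5-fold higher, at 30.1 and 27.4 in the Arc and 1291 and 1542 in the LH (adjusted p = 0.00635). These 4 genes were not well above background on either Arc array and were clear on both LH arrays.

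*Tac1*, the substance P gene, was measured in both nuclei, with 894 and 1295 on the Arc arrays and 14004 and 13945 on the LH arrays and an Arc-minus-LH difference of -3.70 ± 0.27 in log2 (SE) at an adjusted p of 0.0136. *Npb* (neuropeptide B) and *Nptx2*, a pentraxin that orexin neurons express, were also higher in the LH, with Arc-minus-LH differences of -2.03 ± 0.33 in log2 (SE) at an adjusted p of 0.0466, and -2.11 ± 0.33 in log2 (SE) at an adjusted p of 0.0409. The 2 genes that were not called were *Penk* (enkephalin) and *Cck* (cholecystokinin). *Penk* had 12772 and 9890 on the Arc arrays and 22614 and 26272 on the LH arrays (adjusted p = 0.0872). *Cck* read 2403 on Arc1 and 25.6 on Arc2, below background there, against 1932 and 1489 in the LH, so the replicates of the Arc disagreed by more than the nuclei.

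**Figure D2:**
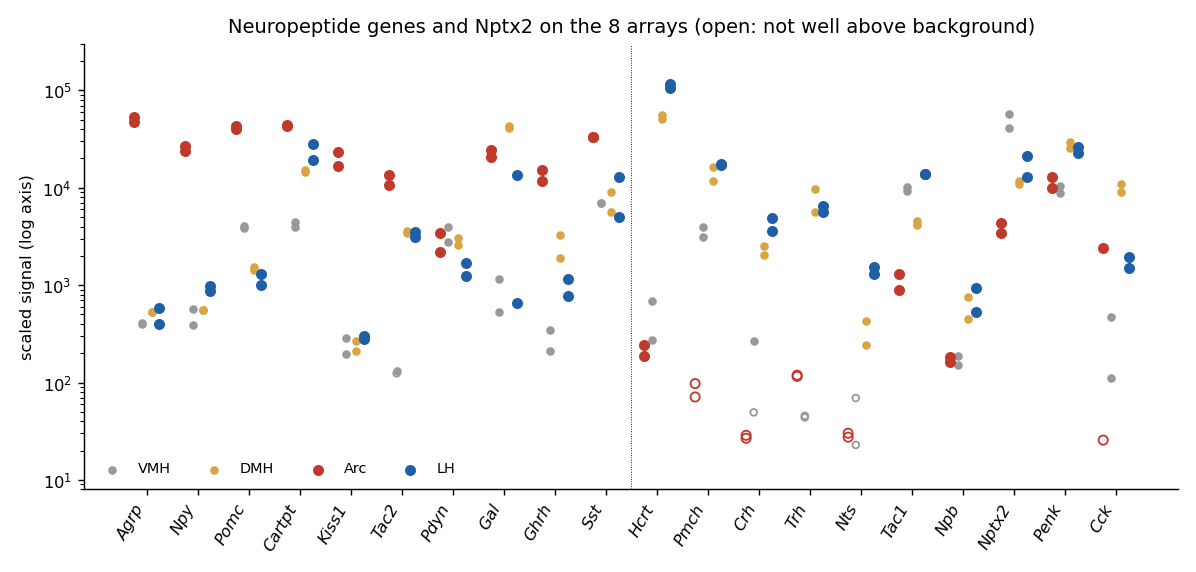
Scaled signal (log axis) of 20 genes, neuropeptide genes and *Nptx2*, on each of the 8 arrays, 1 point per array, red for the Arc, blue for the LH, gray for the VMH, and ochre for the DMH, with open points where the array was not well above background and the dotted line between the peptides listed for the Arc and for the LH. *Agrp*, *Npy*, and *Kiss1* stand apart on the Arc arrays, while *Hcrt*, *Pmch*, *Crh*, and *Trh* are also bright in the DMH.

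The promoters of 2 feeding peptides of the Arc, *Pomc* and *Npy*, and of the 2 peptides that define the LH, *Hcrt* and *Pmch*, are shown from RefSeq (build GRCm38.p6) because these genes define the labelled tissues. Each sequence runs 5′ to 3′ on the strand of the gene, from 250 bases before to 50 bases after the start, and capitals mark TATAAA, the core letters of the TATA box, searched on both strands. It stood on the gene strand in 3 of the 4, starting 33 bases before the start in *Hcrt*, 27 in *Pmch*, and 25 in *Pomc*, and in 8.32% of all 32851 promoter windows of this length. Of the other peptide genes called between the nuclei that were looked up, *Ghrh* held it on the gene strand in 1 of its 2 windows, 31 bases before the start. *Npy* held none in this window, and neither did *Kiss1*, *Trh*, *Nts*, *Tac1*, or *Tac2*.
Hcrt, chr11:100762882-100763181, minus strand: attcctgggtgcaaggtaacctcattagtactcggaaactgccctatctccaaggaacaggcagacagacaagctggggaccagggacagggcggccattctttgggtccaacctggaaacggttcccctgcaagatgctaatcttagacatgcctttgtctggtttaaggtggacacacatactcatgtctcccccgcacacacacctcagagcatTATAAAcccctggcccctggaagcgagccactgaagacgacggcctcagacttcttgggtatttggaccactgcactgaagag
Pmch, chr10:88090822-88091121, plus strand: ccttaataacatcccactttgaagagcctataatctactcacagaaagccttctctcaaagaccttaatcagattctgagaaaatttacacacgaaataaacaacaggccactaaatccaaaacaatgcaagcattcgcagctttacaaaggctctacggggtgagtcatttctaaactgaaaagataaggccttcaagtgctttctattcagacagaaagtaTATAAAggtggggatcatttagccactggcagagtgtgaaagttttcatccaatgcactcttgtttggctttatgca
Pomc, chr12:3954695-3954994, plus strand: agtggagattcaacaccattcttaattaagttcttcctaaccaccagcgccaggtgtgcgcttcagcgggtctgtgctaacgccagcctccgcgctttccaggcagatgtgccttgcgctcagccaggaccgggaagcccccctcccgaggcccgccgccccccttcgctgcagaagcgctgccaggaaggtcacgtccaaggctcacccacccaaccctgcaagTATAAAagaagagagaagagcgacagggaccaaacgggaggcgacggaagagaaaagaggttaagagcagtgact
Npy, chr6:49822460-49822759, plus strand: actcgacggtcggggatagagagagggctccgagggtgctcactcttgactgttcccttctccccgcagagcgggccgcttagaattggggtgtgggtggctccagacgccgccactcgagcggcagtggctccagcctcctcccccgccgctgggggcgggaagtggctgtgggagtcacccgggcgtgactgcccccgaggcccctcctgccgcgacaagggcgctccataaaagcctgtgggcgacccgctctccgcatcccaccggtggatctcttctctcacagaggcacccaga

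Of the receptors and related genes through which the Arc reads circulating hormones, 7 of 17 were called in the Arc and 0 in the LH, with a median log2 difference of 1.44. *Ghsr*, the ghrelin receptor, had 1122 and 1283 on the Arc arrays and 34.1 and 28.8 on the LH arrays, at background in the LH, and rose at least 11.7-fold in the Arc (adjusted p = 0.00635). *Esr1*, estrogen receptor α, had 5000 and 3474 on the Arc arrays and 226 and 70.2 on the LH arrays, an Arc-minus-LH difference of 5.05 ± 0.60 in log2 (SE) at an adjusted p of 0.0241, with LH2 below background. *Glp1r*, the glucagon-like peptide 1 receptor, had 1746 and 2520 on the Arc arrays and 329 and 430 on the LH arrays, an Arc-minus-LH difference of 2.48 ± 0.30 in log2 (SE) at an adjusted p of 0.0247. Both arrays of the Arc were above both of the LH for all 3 genes. The growth hormone receptor *Ghr*, the calcitonin receptor *Calcr*, and the melanocortin receptor *Mc3r* rose by 1.78, 1.64, and 1.65 on the log2 scale (adjusted p = 0.0377, 0.0366, and 0.0426). *Socs3*, an inhibitor that leptin and other cytokines induce, was at least 9.47-fold higher (adjusted p = 0.0155).

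The leptin receptor *Lepr* itself did not pass, with 507 and 355 on the Arc arrays and 145 and 61.7 on the LH arrays and an Arc-minus-LH difference of 2.17 ± 0.47 in log2 (SE) at an adjusted p of 0.0817, where LH2 was below background. The insulin receptor *Insr* had 2463 and 1954 in the Arc and 1142 and 1370 in the LH (adjusted p = 0.152). *Pgr*, the progesterone receptor, had 4347 and 6499 in the Arc and 1843 and 2092 in the LH, an Arc-minus-LH difference of 1.44 ± 0.29 in log2 (SE) at an adjusted p of 0.0697. The receptor substrates and adiponectin receptors *Irs1*, *Adipor1*, and *Adipor2* and the receptor *Igf1r* had higher means in the LH, with adjusted p from 0.105 to 0.141. *Nr3c1*, the glucocorticoid receptor, had a called probe (log2 difference 1.82, adjusted p = 0.0274) and a brighter one that was not called (0.44, adjusted p = 0.366).

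Receptors for neuropeptides divided between the nuclei, with 4 of 20 higher in each. Those higher in the Arc were 3 receptors of neuropeptide Y and the somatostatin receptor *Sstr1*. *Npy1r* had 2844 and 3064 on the Arc arrays and 778 and 608 on the LH arrays, an Arc-minus-LH difference of 2.10 ± 0.24 in log2 (SE) at an adjusted p of 0.0230, and *Npy2r* had an Arc-minus-LH difference of 1.65 ± 0.22 in log2 (SE) at an adjusted p of 0.0294. The dimmer probe of *Npy2r* was not called (adjusted p = 0.0981). *Npy5r* was at least 2.34-fold higher, near background even in the Arc at 274 and 210, and its call was lost when dim signals were set to at least the lowest measured level (adjusted p = 0.0973). *Sstr1* had 2749 and 3925 on the Arc arrays and 266 and 622 on the LH arrays, an Arc-minus-LH difference of 3.01 ± 0.47 in log2 (SE) at an adjusted p of 0.0420. Its other probe had 3525 and 3380 on the Arc arrays and 24.4 and 1234 on the LH arrays. That probe was not called (adjusted p = 0.241), and LH1 was not well above background there. Higher in the LH were the orexin receptor *Hcrtr1*, the neurotensin receptor *Ntsr1*, *Crhr2*, and *Trhr*. *Mchr1*, the receptor of the *Pmch* peptide, had 250 and 336 in the Arc and 179 and 43.3 in the LH (adjusted p = 0.229), and *Kiss1r*, the kisspeptin receptor, had 381 and 318 in the Arc and 435 and 549 in the LH (adjusted p = 0.318). *Trhr* had 407 and 681 on the Arc arrays and 4003 and 4736 on the LH arrays, an Arc-minus-LH difference of -3.05 ± 0.33 in log2 (SE) at an adjusted p of 0.0200, and *Hcrtr1* had 370 and 444 on the Arc arrays and 1838 and 1689 on the LH arrays, an Arc-minus-LH difference of -2.12 ± 0.23 in log2 (SE) at an adjusted p of 0.0206. The other orexin receptor, *Hcrtr2*, was not well above background in either nucleus.

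Genes of dopamine neurons rose in the Arc in 3 of 8 cases, with a median log2 difference of 1.96. *Slc6a3*, the dopamine transporter, had 3264 and 3696 on the Arc arrays and 91.6 and 69.3 on the LH arrays, not well above background in the LH, and rose at least 31.6-fold in the Arc (adjusted p = 0.00635). *Slc18a2*, the vesicular monoamine transporter, had 3524 and 4564 on the Arc arrays and 747 and 730 on the LH arrays, an Arc-minus-LH difference of 2.44 ± 0.24 in log2 (SE) at an adjusted p of 0.0180. *Gch1*, which makes the cofactor of tyrosine hydroxylase, had an Arc-minus-LH difference of 2.92 ± 0.38 in log2 (SE) at an adjusted p of 0.0293. The enzyme itself, *Th*, was bright in both nuclei, with 31311 and 34984 on the Arc arrays and 13167 and 17263 on the LH arrays and an Arc-minus-LH difference of 1.13 ± 0.25 in log2 (SE) at an adjusted p of 0.0836. *Nr4a2*, a transcription factor of dopamine neurons, had a called probe at 1867 and 1726 on the Arc arrays and 115 and 39.5 on the LH arrays, with LH2 not well above background (adjusted p = 0.0220), while on its other probe LH1 read 235 and LH2 29.4 (adjusted p = 0.0909). The prolactin receptor *Prlr* had 2648 and 2864 in the Arc and 809 and 1191 in the LH (adjusted p = 0.0620), and *Drd2*, the D2 receptor, had higher LH signals, 587 and 792 in the Arc and 1986 and 1767 in the LH (adjusted p = 0.0551).

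Transcription factors known from the medial hypothalamus were higher in the Arc in 7 of 15 cases and in the LH in 0. *Tbx3*, which maintains the identity of feeding neurons, had 16146 and 16919 on the Arc arrays and 699 and 841 on the LH arrays, an Arc-minus-LH difference of 4.43 ± 0.23 in log2 (SE) at an adjusted p of 0.00746. *Nr5a2*, an orphan nuclear receptor, had 2548 and 3248 on the Arc arrays and 22.7 and 27.7 on the LH arrays, no signal above background in the LH, and was at least 28.1-fold higher (adjusted p = 0.00635). *Otp*, *Six3*, and *Nkx2-1*, all measured in both nuclei, rose by 1.76, 2.40, and 1.43 on the log2 scale (adjusted p = 0.0269, 0.0321, and 0.0383). *Six6* was at least 8.08-fold higher (adjusted p = 0.0162). *Sox14* was at least 1.95-fold higher and close to background in the Arc, and its call was lost when dim signals were raised (adjusted p = 0.140). *Isl1*, needed for *Pomc* expression, had 1228 and 1068 in the Arc and 748 and 471 in the LH (adjusted p = 0.162), and *Hmx2* and *Hmx3* had higher means in the LH (adjusted p = 0.104 and 0.100).

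Factors known from the lateral hypothalamus and its borders were higher in the LH in 5 of 10 cases and in the Arc in 0. *Ebf3*, an early B cell factor of neurons, had 28.9 and 25.6 on the Arc arrays and 3287 and 3818 on the LH arrays and rose at least 31.3-fold in the LH (adjusted p = 0.00635). *Foxb1*, a forkhead factor of the mammillary and lateral hypothalamus, was at least 11.6-fold higher, at 94.8 and 34.1 in the Arc and 1396 and 1223 in the LH (adjusted p = 0.0227). *Zic1*, a zinc finger factor, was measured in both, with 151 and 134 on the Arc arrays and 2361 and 2133 on the LH arrays and an Arc-minus-LH difference of -3.98 ± 0.22 in log2 (SE) at an adjusted p of 0.00830. *Lhx9*, a factor of orexin neurons, had 76.4 and 82.1 in the Arc and 374 and 861 in the LH and was at least 5.02-fold higher (adjusted p = 0.0404), although the LH arrays differed and the normexp correction ended the call (adjusted p = 0.0610). *Foxa1* was at least 1.54-fold higher, and its call was lost with dim signals raised (adjusted p = 0.221). *Nr2f2* (COUP-TFII), outside this list and among the 12 largest differences, had 131 and 110 on the Arc arrays and 4074 and 4426 on the LH arrays, at least 32.9-fold higher there (adjusted p = 0.00635).

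Retinoid genes gave 2 calls among 10, both in the Arc. *Crabp1*, the cytosolic retinoic acid binding protein, had 9879 and 11601 on the Arc arrays and 300 and 355 on the LH arrays, an Arc-minus-LH difference of 5.03 ± 0.24 in log2 (SE) at an adjusted p of 0.00635. *Rbp4*, the plasma retinol carrier, had 2300 and 2329 on the Arc arrays and 521 and 747 on the LH arrays, an Arc-minus-LH difference of 1.89 ± 0.27 in log2 (SE) at an adjusted p of 0.0344. *Cyp26b1*, which degrades retinoic acid, had 1065 and 1800 in the Arc and 164 and 29.5 in the LH, with LH2 below background (adjusted p = 0.0673). *Aldh1a1*, which makes retinoic acid, had higher LH signals, 2611 and 2680 in the Arc and 4645 and 8520 in the LH (adjusted p = 0.128).

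The 12 genes with the largest differences in each direction held several of these and others outside the lists. In the Arc they were *Krt90*, *Nr5a2*, *Agrp*, *Kiss1*, *Mia*, *Slc6a3*, *Ghsr*, *Pomc*, *Esr1*, *Crabp1*, *Dynlrb2*, and *Pla2g5*. *Krt90*, a keratin gene, had 5300 and 4956 on the Arc arrays and 56.3 and 29.3 on the LH arrays, at least 50.1-fold higher (adjusted p = 0.00746). *Mia* had 6937 and 7085 on the Arc arrays and 234 and 97.5 on the LH arrays, an Arc-minus-LH difference of 5.54 ± 0.45 in log2 (SE) at an adjusted p of 0.0154, with LH2 below background. *Dynlrb2*, a dynein light chain, and *Pla2g5*, a secreted phospholipase, were at background on both LH arrays, at least 8.23-fold and at least 14.7-fold higher in the Arc (adjusted p = 0.00787 and 0.00635). In the LH they were *Hcrt*, *Pmch*, *Crh*, *Ebf3*, *S1pr5*, *Nrn1*, *Kcna1*, *Klk6*, *Trh*, *Nts*, *Pvalb*, and *Nr2f2*. *S1pr5*, a sphingosine 1-phosphate receptor of oligodendrocytes, had 30.6 and 27.4 in the Arc and 2998 and 2379 in the LH, at least 23.6-fold higher (adjusted p = 0.00635). *Nrn1* (neuritin) had 40.0 and 26.4 in the Arc and 2099 and 2135 in the LH, at least 18.7-fold higher (adjusted p = 0.00635). Where one nucleus lay at background these differences have no order, only bounds.

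Of 11 ion channel genes of fast-firing neurons 4 were higher in the LH and 0 in the Arc, with a median log2 difference of -1.68. *Kcna1*, a low-threshold potassium channel, had 76.8 and 26.4 on the Arc arrays and 2436 and 3517 on the LH arrays, at least 25.9-fold higher (adjusted p = 0.0166). *Scn4b*, a sodium channel β subunit, had 127 and 262 on the Arc arrays and 2965 and 2558 on the LH arrays, an Arc-minus-LH difference of -3.92 ± 0.40 in log2 (SE) at an adjusted p of 0.0183, with Arc1 not well above background. *Scn1a* had an Arc-minus-LH difference of -2.45 ± 0.25 in log2 (SE) at an adjusted p of 0.0184, and *Kcna2* one of -1.87 ± 0.27 in log2 (SE) at an adjusted p of 0.0360. Both LH arrays were above both Arc arrays for these 4 genes. *Kcnc1*, a Kv3 potassium channel, was called on a dimmer probe (log2 difference -2.31) and not on its brightest (-0.91), and another probe had higher Arc signals without a call (0.41).

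Of 10 genes of neurofilaments and of fast transmitter release, 3 were higher in the LH, with a median log2 difference of -1.98. *Vamp1*, a vesicle SNARE protein, had 4592 and 5268 on the Arc arrays and 49431 and 65101 on the LH arrays, an Arc-minus-LH difference of -3.53 ± 0.25 in log2 (SE) at an adjusted p of 0.0136. *Syt2*, a fast calcium sensor, was at least 28.8-fold higher, at 129 and 120 in the Arc and 4750 and 2870 in the LH (adjusted p = 0.00968). *Nefm*, the medium neurofilament, had 420 and 639 in the Arc and 2650 and 3281 in the LH, an Arc-minus-LH difference of -2.51 ± 0.30 in log2 (SE) at an adjusted p of 0.0249. *Nefl* and *Nefh* had higher means in the LH without passing (adjusted p = 0.0545 and 0.0525). Parvalbumin, *Pvalb*, a calcium buffer of fast-firing neurons, had 285 and 88.5 on the Arc arrays and 5855 and 7396 on the LH arrays, with Arc2 below background and an Arc-minus-LH difference of -5.37 ± 0.59 in log2 (SE) at an adjusted p of 0.0206. Its second probe had 27.4 and 26.3 on the Arc arrays and 600 and 545 on the LH arrays and was called as well. No other of the 8 calcium-binding genes was called on its brightest probe, and the dimmer probe of *Hpca* (hippocalcin) was higher in the LH (log2 difference -2.04).

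Of the glutamate and GABA genes 1 of 6 was called. *Slc17a6*, the vesicular glutamate transporter VGLUT2, was higher in the LH, with 1365 and 1618 on the Arc arrays and 5101 and 3912 on the LH arrays and an Arc-minus-LH difference of -1.59 ± 0.26 in log2 (SE) at an adjusted p of 0.0447. The GABA genes *Gad1*, *Gad2*, and *Slc32a1* had log2 differences of -0.38, -0.74, and -0.39 (adjusted p = 0.346, 0.175, and 0.468). *Hdc*, of histamine neurons, had 180 and 479 in the Arc and 1383 and 1093 in the LH (adjusted p = 0.102). None of 6 perineuronal net genes and none of 9 immediate early genes was called by limma, and of the latter *Fos* had 724 and 356 in the Arc and 682 and 456 in the LH (Arc-minus-LH difference -0.14 ± 0.43 in log2 (SE) at an adjusted p of 0.872).

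**Figure D3:**
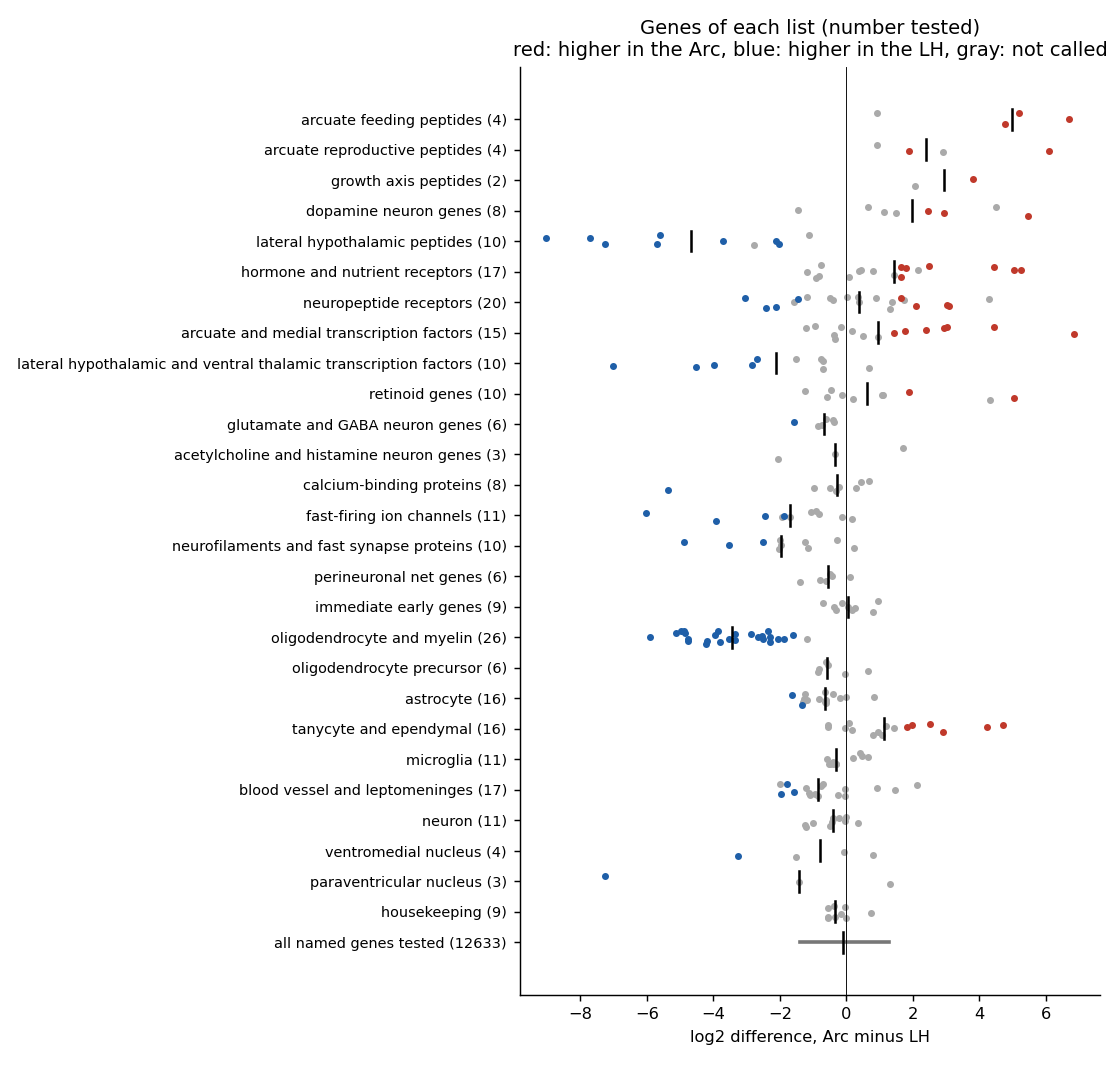
Log2 difference, Arc minus LH, of each gene tested in 27 lists (number tested in parentheses), with called genes in red (Arc) or blue (LH), the median of each list as a black bar, and for all 12633 named genes the median and the span from percentile 5 to percentile 95. The myelin list lies wholly to the left of 0, with a fitted median of -3.43 (-3.06 with genes at background in the Arc at their bound), and the feeding peptides to the right.

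Markers of oligodendrocytes and myelin held more calls than any other list, with 25 of 26 higher in the LH and a median log2 difference of -3.06 with the 6 genes not measured in the Arc at their bound. Their summed scaled signal was 49487 and 33445 on the Arc arrays and 240859 and 271569 on the LH arrays. *Mog*, a protein of the outer myelin surface, had 1049 and 646 on the Arc arrays and 9432 and 14889 on the LH arrays, an Arc-minus-LH difference of -3.85 ± 0.37 in log2 (SE) at an adjusted p of 0.0175. *Mag* had 5181 and 2650 on the Arc arrays and 37108 and 38409 on the LH arrays, an Arc-minus-LH difference of -3.35 ± 0.37 in log2 (SE) at an adjusted p of 0.0213, and *Mobp* had one of -4.20 ± 0.36 in log2 (SE) at an adjusted p of 0.0155. Every LH array lay above every Arc array for all 26 genes, as for 38.0% of all named genes. *Klk6*, a protease of oligodendrocytes, had 112 and 35.4 on the Arc arrays and 3247 and 4339 on the LH arrays, at least 31.4-fold higher (adjusted p = 0.0180), and 6 of the 26 were at background on both Arc arrays. The remaining gene, *Olig1*, had 3511 and 3121 in the Arc and 9424 and 6089 in the LH (adjusted p = 0.104), against a called *Olig2* (1129 and 1104 in the Arc and 3885 and 2932 in the LH, adjusted p = 0.0414). *Mbp* was called on its brightest probe (log2 difference -2.34), while its 2 other probes were not (0.42 and 1.26, adjusted p = 0.458 and 0.0723), so the probes of that gene disagreed. *Klk6*, *Mobp*, *Anln*, and *Tmem125* are among genes the study picked from these arrays and add no independent support. The Arc arrays also differed from each other, with Arc1 above Arc2 for all 26 genes. The 6 markers of oligodendrocyte precursors gave 0 calls by limma, with log2 differences of -0.85 to 0.64. The part of myelin in the other differences between the nuclei, those of fast-firing genes included, was not tested.

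Markers of tanycytes and ependyma were higher in the Arc in part, with 6 of 16 higher there, 0 in the LH, and a median log2 difference of 1.01 with the 3 genes not measured in the LH at their bound. Their summed scaled signal was 25176 and 23143 on the Arc arrays and 14488 and 17650 on the LH arrays, with both Arc sums above both LH sums. For 10 of the 16 genes both Arc arrays lay above both LH arrays, as for 22.5% of all named genes. *Rax*, the homeobox factor that defines tanycytes, had 1738 and 1360 on the Arc arrays and 28.4 and 120 on the LH arrays, at least 15.0-fold higher (adjusted p = 0.0381). *Col23a1*, a collagen of tanycytes, had 1549 and 1558 in the Arc and 85.3 and 81.9 in the LH, at least 14.6-fold higher (adjusted p = 0.00746), and a second probe was just short of the threshold (adjusted p = 0.0553). *Crym*, *Gpr50*, and *Frzb* rose by 2.50, 1.98, and 2.92 on the log2 scale (adjusted p = 0.0183, 0.0228, and 0.0246). The sixth, *Fgf10*, was near background even in the Arc, at least 1.71-fold higher, and lost its call when dim signals were raised (adjusted p = 0.203). *Vim* and *Dio2* had higher means in the Arc and did not pass (adjusted p = 0.0904 and 0.119). *Foxj1* and *Tmem212*, of ciliated ependyma, were at background in both nuclei. The part of tanycytes in the other Arc calls was not tested.

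Of 16 astrocyte markers 2 were higher in the LH, the connexin *Gjb6* (Arc-minus-LH difference -1.63 ± 0.24 in log2 (SE) at an adjusted p of 0.0385) and glutamine synthetase *Glul* (-1.33 ± 0.21 in log2 (SE) at an adjusted p of 0.0438), with a list median of -0.65. Of 17 vessel markers 3 were higher in the LH, among them *Flt1* (-1.80 ± 0.30 in log2 (SE) at an adjusted p of 0.0491), which lost its call with the outlier spots kept (adjusted p = 0.0520). *Acta2*, of smooth muscle, had 501 and 522 in the Arc and 1611 and 2508 in the LH (adjusted p = 0.0381), and its call was lost when all 8 arrays set the spread (adjusted p = 0.143). None of 11 microglial, 11 neuronal, and 9 housekeeping genes was called by limma, with list medians of -0.31, -0.41, and -0.34. *Gapdh* had 88510 and 95440 in the Arc and 104276 and 84605 in the LH, an Arc-minus-LH difference of -0.03 ± 0.24 in log2 (SE) at an adjusted p of 0.948.

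Markers of neighbouring structures were checked too. The DMH genes *Prdm13*, *Npvf*, *Grp*, and *Skor1* were not well above background in the Arc and were so on LH1 but not on LH2, where *Npvf* read 406 and 29.0. The VMH marker *Nr5a1* had 325 and 384 in the Arc and 650 and 211 in the LH (adjusted p = 0.954), and *Bdnf* of the same list rose at least 4.80-fold in the LH (adjusted p = 0.0396). *Oxt* (oxytocin), of the paraventricular and supraoptic nuclei, read 6559 on Arc1, 848 on Arc2, 109 on LH1, and 8332 on LH2, and *Avp* (vasopressin) read 279 on LH1 and 2432 on LH2, so the arrays of a nucleus lay far apart for *Oxt* in both nuclei and for *Avp* in the LH. *Crh*, which is on the paraventricular list too, was high on both LH arrays as given above and at background on both Arc arrays. Of 8 pituitary genes, *Cga* was above background on Arc1 alone, at 1425, and *Gh* and *Prl* were at background on all 4 arrays. The part of such neighbouring tissue in other calls was not tested.

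**Figure D4:**
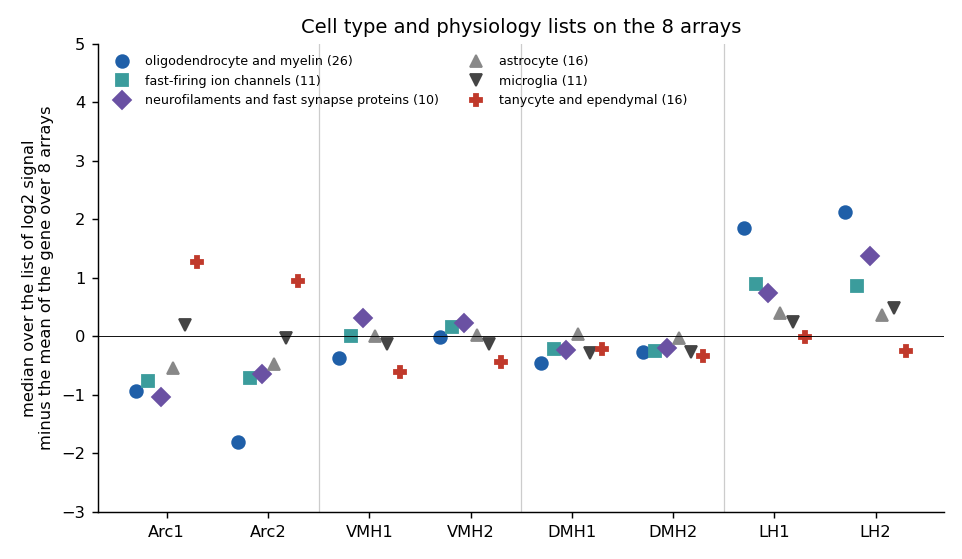
For each of the 8 arrays, the median over a list of the log2 scaled signal of its genes minus each gene's mean over the 8 arrays, 1 symbol per list (genes tested in parentheses). The oligodendrocyte list stands at 1.85 and 2.12 on the LH arrays and at -0.93 and -1.80 on the Arc arrays, and the tanycyte list at 1.28 and 0.95 on the Arc arrays.

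The other 2 nuclei of the series were set beside the Arc and the LH. Of the 366 probes higher in the Arc than in the LH, both Arc arrays lay above the 6 other arrays for 243, against 9.22% of all probes compared, and both LH arrays lay below the 6 others for 192, against 9.18%. Of the 765 probes higher in the LH, both LH arrays lay above the 6 others for 581, against 13.0%, and both Arc arrays below them for 562, against 11.4%. In a limma fit of all 8 arrays, each nucleus was set against the mean of the VMH and DMH. Of the 366 probes higher in the Arc than in the LH, 186 were also higher in the Arc than in that mean (50.8%, against 1.85% of all probes) and 135 were lower in the LH than in it (36.9%, against 1.47%). Of the 765 higher in the LH, 380 were higher in the LH than in the mean (49.7%, against 2.82%) and 353 were lower in the Arc (46.1%, against 2.54%). Without Arc1 or without Arc2 limma left 0 of either kind (186 and 380), and the Arc count was 430 without LH1 and 327 without LH2. The comparisons share the Arc and LH arrays, so these shares describe the probes and are not independent support.

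*Agrp*, *Kiss1*, and *Crabp1* were higher in the Arc than in the mean of the VMH and DMH, with log2 differences of 6.76, 6.38, and 6.04 (each adjusted p at most 6.92e-05). *Nr5a2* was higher too (adjusted p = 6.41e-05), but no VMH or DMH array was well above background, at 30.5 and 19.2 in the VMH and 20.5 and 20.5 in the DMH, so no size is given. *Agrp* in the LH differed from that mean by 0.06 ± 0.20 (SE), adjusted p = 0.893. *Pomc* was higher in the Arc than in the VMH and DMH (4.10 ± 0.18 (SE), adjusted p = 0.000125) and lower in the LH (-1.09 ± 0.18 (SE), adjusted p = 0.0231), at 4049 and 3865 in the VMH and 1554 and 1447 in the DMH. On the side of the LH, *Klk6* was higher in the LH than in the mean (adjusted p = 0.00243), and no Arc, VMH, or DMH array was well above background, at 36.7 and 38.4 in the VMH and 83.6 and 117 in the DMH, so its order among those 3 nuclei is not known. *Pvalb* was higher in the LH as well (adjusted p = 0.00911), at 29.9 and 125 in the VMH and 430 and 429 in the DMH, with 1 Arc and 1 VMH array not well above background. *Hcrt* was not confined to the LH, with 684 and 275 in the VMH and 55940 and 51283 in the DMH. *Pmch* read 3938 and 3140 in the VMH and 16253 and 11631 in the DMH, and the Arc was lower than their mean (adjusted p = 6.41e-05) with neither Arc array well above background. *Nr2f2* was bright in the VMH and DMH as well (9000 and 7114 in the VMH and 3927 and 3706 in the DMH), and its LH signal differed from them by -0.38 ± 0.18 (SE), adjusted p = 0.283.

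Of the 26 oligodendrocyte genes, 24 were higher in the LH than in the mean of the VMH and DMH and 5 were lower in the Arc, against 2.82% and 2.54% of all probes. Of the 16 tanycyte genes, 11 were higher in the Arc than in that mean and 1 was lower in the LH, against 1.85% and 1.47%, while 2 were higher in the LH, against 2.82%. Of the 10 LH peptides, 6 were higher in the LH and 6 were lower in the Arc, to be read against the same shares as the oligodendrocyte genes. These shares are of all probes, while a list gene is counted by its brightest probe, so they are only a rough reference.

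**Figure D5:**
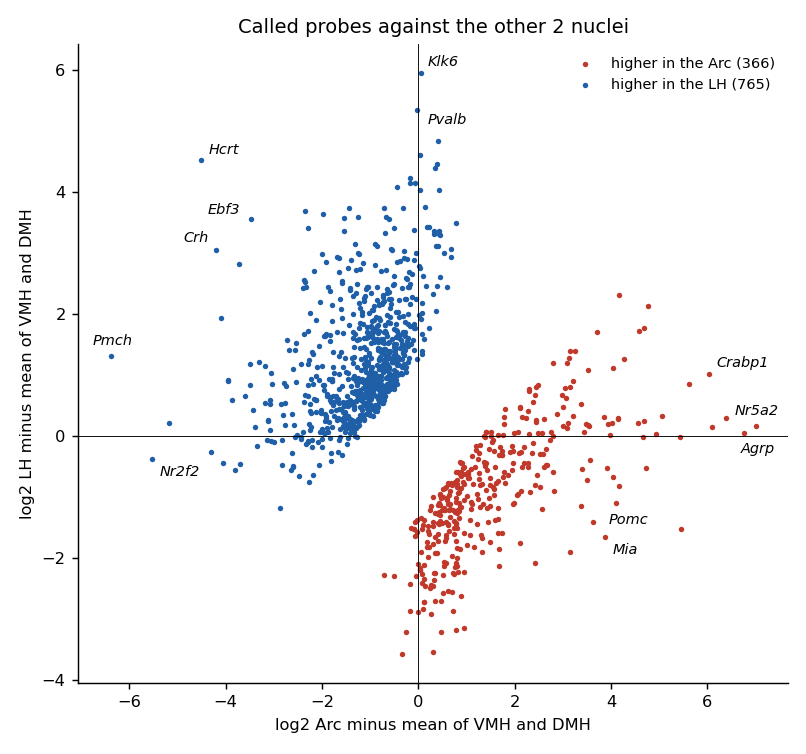
Each point is a probe called between the Arc and the LH, with the log2 difference of the Arc from the mean of the VMH and DMH on the x axis and that of the LH on the y axis, red where higher in the Arc and blue where higher in the LH. *Nr2f2* lies near 0 on the y axis, at -0.38, and *Hcrt* is far from 0 on both, while positions that rest on background readings, such as those of *Klk6* on the x axis and *Pmch* and *Nr2f2* on the same axis, carry no exact size.

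The study takes genes that are at least 10-fold higher in 1 nucleus than in the others, and the same minimum was applied here to the Arc and the LH alone. By the ratio of the mean scaled signals, 57 probes were at least 10-fold higher in the Arc (0.212% of the probes compared) and 135 at least 10-fold higher in the LH (0.502%), of which limma called 48 and 127. These counts fell to 12 and 26 with the normexp background correction and to 26 and 63 with dim signals raised. Most of these probes had at least 1 array not well above background, and 7 and 27 were well above it on all 4 arrays. Judged on LH1 alone, without LH2, 336 probes passed in the Arc, and on LH2 alone, without LH1, 149 did. Without Arc2, 99 passed in the Arc. Several ratios that limma did not call had replicates far apart. *Smoc2*, a matricellular protein gene with one of the 12 largest ratios, had 429 and 3988 in the Arc and 93.5 and 28.4 in the LH (adjusted p = 0.107). *Cnih4* had 1471 and 1686 in the Arc and 36700 and 2221 in the LH (adjusted p = 0.319), so its ratio was that of 1 LH array. *Tbr1*, a cortical transcription factor, had 228 and 245 in the Arc and 1556 and 8724 in the LH (adjusted p = 0.0741). The other named probes past 10-fold without a call were those of *Col23a1*, *Nr4a2*, *Cyp26b1*, and *Usp51* in the Arc and of *Tnfaip6*, *Adamts4*, *Trim59*, and *Arl4d* in the LH.

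Probes of 1 gene did not always agree. Of 270 list genes compared, 64 had several probes, none was called in opposite directions, and for 11 only some of the probes were called.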

How the data were processed

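RNA of laser-microdissected nuclei from female C57BL/6 mice (C57BL/6J in the study's methods) was measured on 8 one-color Agilent arrays of 1 slide, 2 per nucleus. The labels name Cy3 as the dye while the labelling protocol and the files give the red channel (Cy5). The deposited intensity values are the background-subtracted processed signals of Agilent Feature Extraction, of which the file headers name version 10.7.3.1 and the submitters' processing notes version 11.5.1.1, and the authors' series table holds intensities close to them, which gave 361 and 734 calls over 27004 probes.

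Control and outlier spots were left out, spots of a probe were averaged, and the signals were divided by the 75th percentile of each array and taken to log2. Because only 2 arrays per nucleus exist, they limit the precision. The Arc and LH were compared with limma 3.58.1 in R 4.3.3 (lmFit and eBayes, 4 arrays, 2 residual and 2.95 prior degrees of freedom) over 26908 probes, each measured by both arrays of the Arc or both of the LH, with Benjamini-Hochberg adjustment and a threshold of 0.05. The code was tested on simulated data. Where both arrays of a nucleus were not well above background, a fold is a lower bound: the geometric mean of the brighter nucleus over the geometric mean of, per array, the higher of the lowest measured signal and the signal of the probe. A gene was represented by its brightest probe. Of 28390 probes with a RefSeq accession, 26762 (94.3%) were named through a RefSeq table of GRCm38.p6.

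The genes named were those the study names for the 2 nuclei, the 12 largest called differences in each direction, genes of 29 lists, and those among the 12 largest ratios that limma missed. Some genes that these rules reach are not reported here. The members and lists were chosen with earlier results of these data known. Replicate numbers were not taken as pairs, since the labels tie none to an animal and deviations of same-numbered arrays correlated at 0.0679 between the Arc and the LH. Alternatives changed the scaling, the background correction, the filter, the outlier spots, the source table, the fit, and the arrays used.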

Additional observations from a re-analysis of the deposited data

How the results depend on the processing

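With 2 arrays per nucleus the counts depend on how the spread is estimated, while every probe called kept its direction in each alternative in which it was tested. For calls higher in the Arc (366) and in the LH (765), the fit of all 8 arrays gave 1060 and 1901, no filter on dim probes 209 and 363, normexp 501 and 1238, and a trended prior 528 and 1190. The study's methods name an unpaired t-test in general but select genes from the arrays by ratio alone. Applied here, that test gave 1623 and 2876 unadjusted and 0 and 0 after Benjamini-Hochberg adjustment, where the list genes also gave 0 and 0. Leaving out 1 array gave 0 to 2297 and 0 to 1879. Leaving out 1 array of the 8-array fit, chosen after seeing the data, gave 1708 and 1792 without LH1, 1734 and 1810 without LH2, 267 and 584 without Arc1, and 400 and 638 without Arc2. Of all calls 32.4% were higher in the Arc, against 24.7% to 39.5% under the other scalings, which moved the median log2 difference of all probes from 0.039 to between -0.12 and 0.15 (log2).

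The replicate number as a block gave 245 and 461 calls with 4 arrays and 1094 and 1747 with 8. By the file names, every replicate 1 array lay in row 1 of the slide and every replicate 2 array in row 2. Among the genes named above, the block with 4 arrays ended the calls of *Acta2*, *Calcr*, *Crhr2*, *Fgf10*, *Flt1*, *Ghr*, *Gjb6*, *Glul*, and *Mc3r*. It also ended those of *Nkx2-1*, *Npb*, *Nptx2*, *Npy2r*, *Olig2*, *Otp*, *Rbp4*, and *Slc17a6*. The correlations of deviations between same-numbered arrays ran from -0.037 to 0.262 over the pairs of nuclei, which does not settle whether the numbers mark shared animals.

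At least 10-fold ratios (57 and 135) became 12 and 26 with normexp, 26 and 63 with dim signals raised, 7 and 27 with all 4 arrays well above background, and 93 in the Arc with geometric means. They were 250 and 354 at 5-fold and 25 and 42 at 20-fold, and 74 to 336 and 140 to 165 with 1 array left out. Probes also higher than the mean of the VMH and DMH (186 and 380) were 104 and 173 without the filter, 117 and 217 without scaling, and 0 to 430 and 0 to 549 with 1 array left out. List genes called (35 and 57) were 36 in the LH without the filter, and 0 to 52 and 0 to 87 with 1 array left out. With 1 array left out, in both fits, the Arc-minus-LH log2 difference ran from -6.05 to 0.50 for *Cck* (above 0 without Arc2), from -2.98 to 0.14 for *Avp* (above 0 without LH2), and from -1.82 to 4.44 for *Oxt* (-0.17 without Arc1, -1.82 without LH1). Of these, *Avp* passed the threshold without LH1 in both fits (adjusted p = 0.00330 and 0.00804) and *Cck* without Arc1 in the 8-array fit (adjusted p = 0.0214), each lower in the Arc.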

Other observations

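Gene families taken by their symbols, chosen after their values were seen, gave further calls by limma. Of all named genes tested, 1.54% were called in the Arc and 3.62% in the LH. Each count below is of the members tested, since dim members were left out by the filter. Of 21 acetylcholine receptor genes on the array 5 were tested, of 14 serotonin receptor genes 7, and of 45 motile cilium genes 26. Losses of a call under other settings are not given for these families. Of 16 GABA-A and GABA-C receptor subunits, *Gabre* was higher in the Arc, at 16207 and 12316 in the Arc and 1977 and 1339 in the LH (log2 difference 3.12 ± 0.30 (SE), adjusted p = 0.0178). *Gabrb2* and *Gabrr2* were among those higher in the LH, with *Gabrb2* at 2432 and 2689 in the Arc and 15663 and 17859 in the LH (log2 difference -2.71 ± 0.23 (SE), adjusted p = 0.0154). Of 15 genes of the JAK and STAT pathway and its SOCS inhibitors, 4 were higher in the Arc and 0 in the LH. They were *Socs1*, *Socs2*, *Socs3*, and *Stat5a*, with *Socs2* at 1972 and 2596 in the Arc and 546 and 502 in the LH (log2 difference 2.11 ± 0.25 (SE), adjusted p = 0.0238). Of 26 genes of motile cilium families, *Cfap126*, *Cfap45*, and *Rsph1* were higher in the Arc, with *Rsph1* at 1255 and 1450 in the Arc and 226 and 213 in the LH (log2 difference 2.62 ± 0.22 (SE), adjusted p = 0.0155) and a family median of 0.86.

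Of 16 Eph receptors and ephrins, which guide axons, *Efna5* and *Efnb1* were higher in the Arc and *Epha8* and *Ephb1* in the LH, with *Ephb1* at 447 and 684 in the Arc and 5437 and 5534 in the LH (log2 difference -3.31 ± 0.29 (SE), adjusted p = 0.0155). Of 7 serotonin receptors, *Htr2c* was higher in the LH, at 574 and 759 in the Arc and 7317 and 5378 in the LH (log2 difference -3.25 ± 0.29 (SE), adjusted p = 0.0155). Of 5 acetylcholine receptors, *Chrm2* and *Chrna4* were higher in the LH, with *Chrna4* at 307 and 296 in the Arc and 3570 and 3156 in the LH (log2 difference -3.48 ± 0.22 (SE), adjusted p = 0.00968). Of 22 glutamate receptor subunits, *Grin2c*, *Grm3*, and *Grm5* were higher in the LH, with *Grm5* at 1585 and 1803 in the Arc and 4686 and 4308 in the LH (log2 difference -1.41 ± 0.22 (SE), adjusted p = 0.0428).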
